A study of Homo sapiens with 21 samples.

Results

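The 10 genes described here, DUSP1, DUSP2, DUSP4, DUSP5, DUSP6, DUSP10, SPRY1, SPRY2, SPRED1 and SPRED2, encode feedback inhibitors of the extracellular signal-regulated kinases (ERK) and their relatives. They were taken by symbol, after removal of the version from each gene identifier, from the 58174 genes listed for each library. RNA was sequenced from 21 libraries of OCI-AML5, a human acute myeloid leukemia cell line, in 7 groups of 3. Cells were kept in DMSO, the vehicle (labelled 72 h), or exposed for 6, 24, 48 or 72 h to UM171, a small molecule that expands human hematopoietic stem cells ex vivo. The other 2 groups were cells that express guide RNAs against EPCR (sgEPCR), the endothelial protein C receptor encoded by PROCR, in DMSO or in UM171, both labelled 24 h. The labels give 500 nM UM171, where a figure legend of the study gives a lower dose, and name no guide RNA for the other 15 libraries, called control cells below. They call the edited cells a clone that is EPCR null and also a knockdown. They do not say which clone gave which library or whether the 3 libraries of a group were separate cultures. The study describes 3 independent sgEPCR clones and a wild-type arm named sgAAVS1, a name that the labels do not give. The tests therefore measure the spread between libraries, which may be technical or, in sgEPCR cells, lie between clones. The labels give DMEM with serum as the culture medium, and the study's methods give MEM alpha with GM-CSF, a cytokine that acts through this pathway. DMSO and UM171 were matched in time only at 72 h in control cells and at 24 h in sgEPCR cells, so at 6, 24 and 48 h in control cells exposure and time in culture cannot be told apart.

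ERK is the last kinase of a cascade that runs from cell surface receptors through RAS, RAF and MEK, and it carries growth factor and cytokine signals in myeloid cells. DUSP proteins are phosphatases that remove the activating phosphates from ERK, JNK or p38, whereas Sprouty and SPRED proteins act further upstream, on RAS and RAF. Several of these genes are themselves transcribed in response to ERK activity, which makes them widely used readouts of the pathway.

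For 3 of the phosphatases the stretch of 250 bases before the gene start is shown, because they differed most in how their levels moved: DUSP6 with the largest gain of the tested members at 72 h, DUSP2 with the largest loss of the tested members, and DUSP1 with small changes and the only cAMP response element. The sequences are from RefSeq (build GRCh38.p14), read 5′ to 3′ on the minus strand, on which all 3 genes lie, with matches to the motifs named below in capitals.
DUSP6 (chr12:89352502-89352751): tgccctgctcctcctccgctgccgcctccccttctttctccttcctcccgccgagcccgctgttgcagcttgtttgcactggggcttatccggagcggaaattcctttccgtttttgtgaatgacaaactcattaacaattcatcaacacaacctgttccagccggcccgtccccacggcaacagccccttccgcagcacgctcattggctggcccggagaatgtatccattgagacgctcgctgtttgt
DUSP2 (chr2:96145441-96145690): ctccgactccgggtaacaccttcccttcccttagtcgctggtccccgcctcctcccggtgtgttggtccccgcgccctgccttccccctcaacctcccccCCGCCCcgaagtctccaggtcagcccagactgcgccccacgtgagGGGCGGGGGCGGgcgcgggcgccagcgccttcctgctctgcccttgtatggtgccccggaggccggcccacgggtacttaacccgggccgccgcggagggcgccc
DUSP1 (chr5:172771196-172771445): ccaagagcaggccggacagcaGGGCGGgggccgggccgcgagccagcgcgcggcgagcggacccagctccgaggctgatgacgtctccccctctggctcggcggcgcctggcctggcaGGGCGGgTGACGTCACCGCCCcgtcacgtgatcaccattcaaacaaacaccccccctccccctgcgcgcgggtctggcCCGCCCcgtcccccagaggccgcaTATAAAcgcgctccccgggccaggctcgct
Searched on both strands were the cAMP response element (TGACGTCA), the AP-1 site (TGANTCA), the ETS site (CCGGAA), the GC box (GGGCGG), the TATA box (TATAAA) and the CArG box. An entry was found for 8 of the 10 members, DUSP4 and DUSP5 being the exceptions. The cAMP response element was in 1 of the 8, DUSP1, against 1.65% of all 35116 promoters of the same length. The ETS site was in 1 of 8, SPRY2, against 14.5%, the TATA box in 1 of 8, DUSP1, against 10.7%, and the GC box in 5 of 8 against 42.6%. The AP-1 site and the CArG box were in 0 of 8, against 6.57% and 1.16% of all promoters. DUSP6 held no match to any of these letters, DUSP2 held 3 GC boxes, of which 2 adjoin, and the G and C content was 57.2% for DUSP6, 74% for DUSP2 and 74.4% for DUSP1, against a median of 58% over all promoters. A match is a description of the letters only.

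Libraries held 24.3 to 51.5 M expected counts (median 33.9 M). The share of mitochondrial genes was 7.73% to 13.5% in 19 libraries, but 35.9% in replicate 1 of sgEPCR DMSO and 32.2% in replicate 2 of sgEPCR UM171, and the member results in sgEPCR cells are therefore given with and without these 2 libraries. Of the myeloid markers, CD33, SPI1, CEBPA and LYZ had group means of 25.4 TPM or more (a level per transcript length, scaled to the same sum in each library) in all 7 groups, whereas MPO and ANPEP were at 7.25 TPM or less. Markers of T, B, epithelial and fibroblast cells (CD3E, MS4A1, EPCAM and COL1A1) had group means of 0.99 TPM or less. PROCR, the edited gene, had means of 3.68 TPM in DMSO, 48.5 in UM171 24 h, 3.59 in sgEPCR DMSO and 7.19 in sgEPCR UM171. Its mRNA was lower in sgEPCR than in control cells under UM171 (-2.63, edgeR adjusted p = 1.9e-07, and -2.59 without the 2 libraries). In DMSO the edgeR test with TMM scaling called it higher in sgEPCR cells (0.42, edgeR adjusted p = 0.022, and 0.33 without them, 0.019). Its mean TPM was not higher there. In this comparison the median of all genes was -0.25 with total count scaling and 0.00 with TMM. In sgEPCR cells PROCR rose with UM171 (0.65, edgeR adjusted p = 0.001, and 0.78 without the 2 libraries). The mRNA level therefore does not show the EPCR null state of the label in DMSO, and these files hold no protein measurement. RNA came from whole cultures, so a lower level per cell and fewer expressing cells cannot be told apart.

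Of the 10 members, 9 passed the filter on low counts, and DUSP4 did not. Averaged over the 21 libraries, DUSP6 had the highest level of the members with 54.7 TPM, followed by SPRED2 with 27.6, SPRY2 with 15.6 and SPRY1 with 10.98 TPM. SPRED1 (9.02 TPM), DUSP10 (8.11), DUSP5 (6.94), DUSP2 (6.87) and DUSP1 (4.37) followed. The lowest count of any of these 9 genes in a library was 28, for DUSP2, and the highest was 5948, for DUSP6. All members had whole expected counts in all 21 libraries, to within 0.005 of a count.

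**Figure D1:**
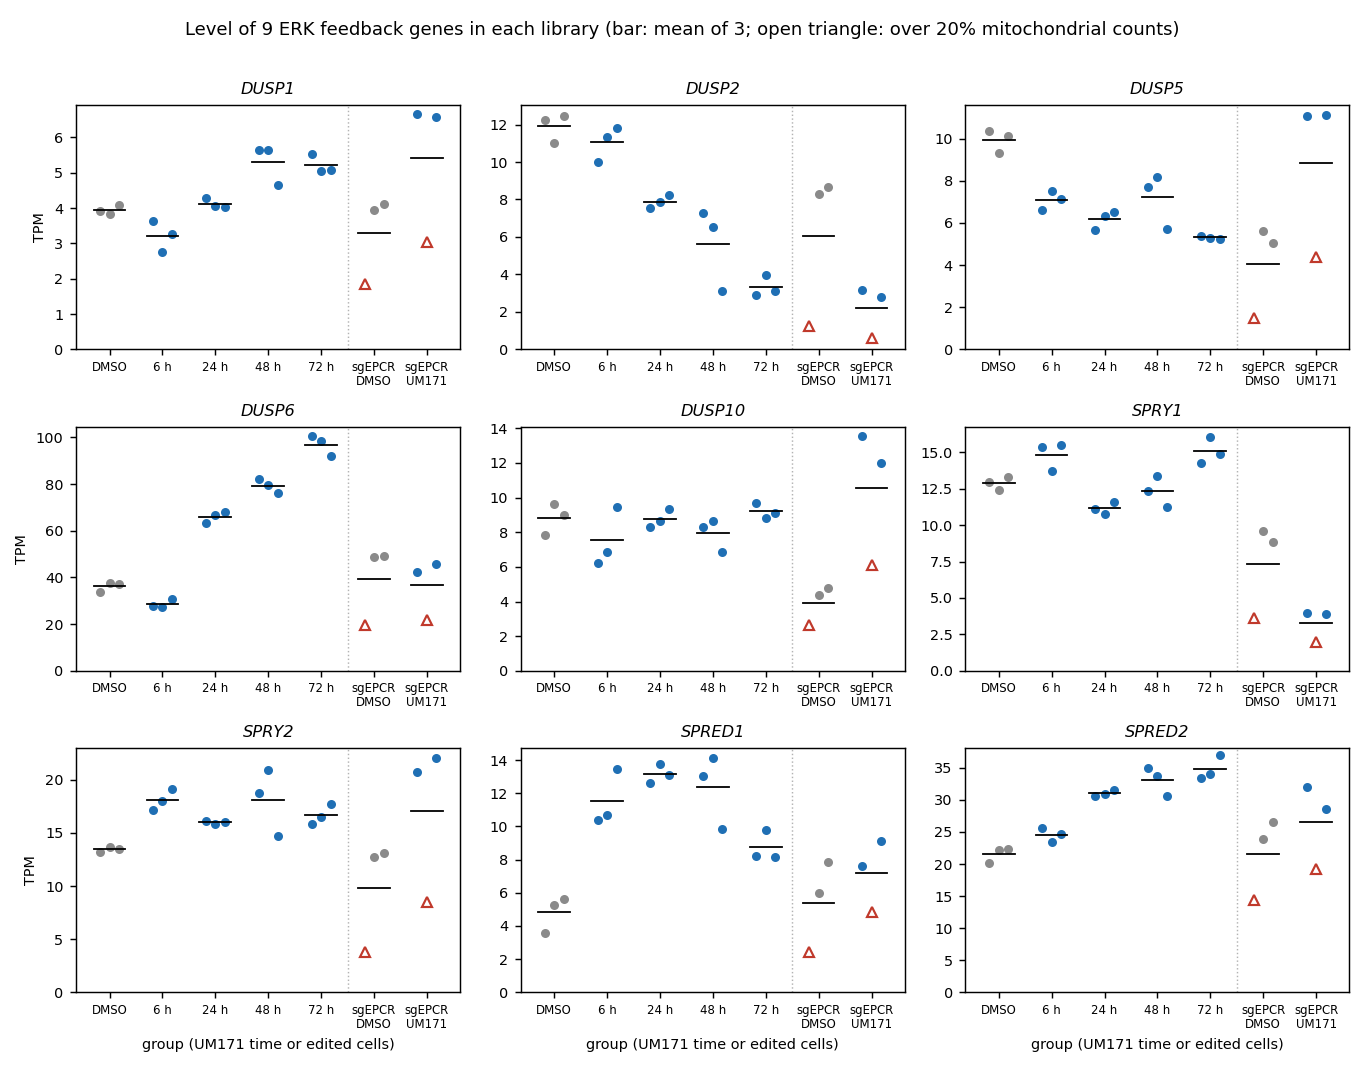
Level of each tested member in TPM (vertical axis, from 0) in the 21 libraries, by group (horizontal axis). Points are libraries, bars are means of 3, gray marks DMSO, blue marks UM171, and open red triangles mark the 2 libraries with over 20% mitochondrial counts. DUSP6 and SPRED2 climb and DUSP2 declines over the UM171 time course. In the sgEPCR groups the triangles lie below the other libraries of their group for every gene shown, and the share of all genes with this order was not counted.

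To follow the members over the exposure, each time point was compared with the same 3 DMSO libraries, so that the comparisons are not independent, in a single fit of 15 libraries with edgeR's quasi-likelihood test. A gene was counted as higher or lower at a Benjamini-Hochberg adjusted p under 0.05 over all 16575 tested genes, and a second count used the study's limits, an adjusted p under 0.0001 with a change over 2-fold. Here these limits were set on edgeR's adjusted p and fold change of the counts, where the study's methods describe sleuth and fold change in TPM. The phosphatases moved in different directions, while both SPRED genes and SPRY2 moved up. At 6 h, 2 of 9 members were higher, against 31.8% of all tested genes, and 4 were lower, against 30.3%. At 24 h, 4 were higher (34.9% of all genes) and 3 lower (34.8%). At 48 h, 5 were higher (37.1%) and 2 lower (35%). At 72 h, 6 were higher (38.8%) and 2 lower (36.8%). The median log2 fold change of the 9 members was -0.27 at 6 h, 0.03 at 24 h, 0.45 after 48 h and 0.24 at 72 h, beside medians of 0.02, -0.01, -0.00 and 0.02 over all genes. Within the study's limits were 0 of 9 at 6 h (7.03% of all genes), 1 at 24 h (13.7%), 3 after 48 h (16.4%) and 2 at 72 h (20.8%). So many genes passed the test at each time that the counts of members lie near those of the whole transcriptome, and the members differ mainly in their individual courses. These directions are relative to the TMM scaling. With total count scaling the median of all genes at 6 h was 0.20 and 75.2% of the calls were higher, against 51.2% with TMM, and on log2(TPM + 1) with limma these were 0.13 and 75.6%.

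**Figure D2:**
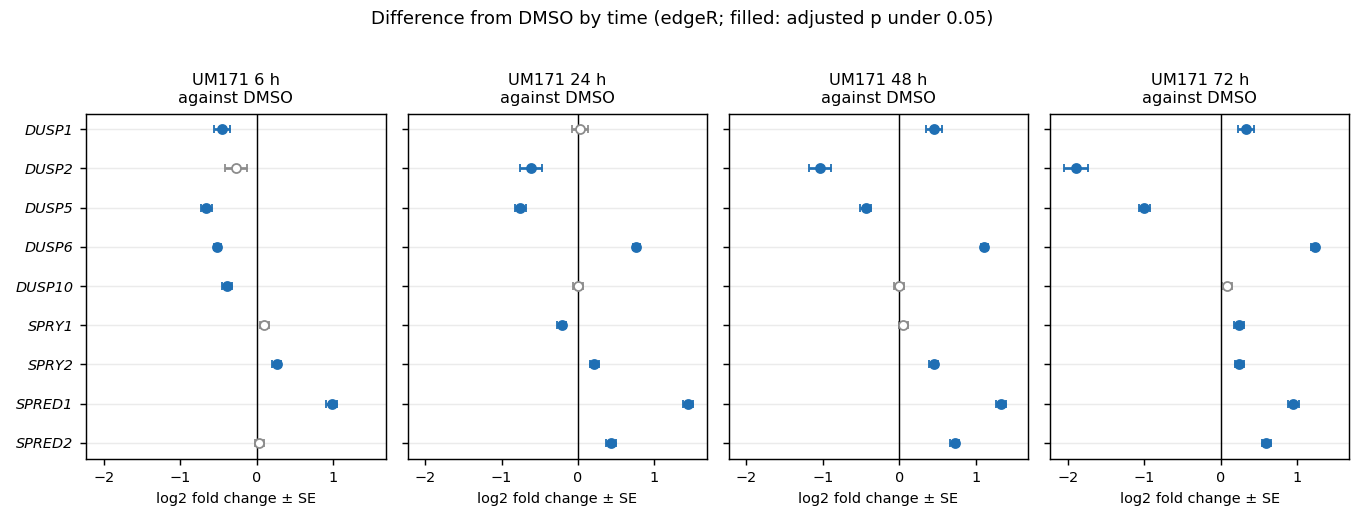
Log2 fold change (horizontal axis, with the standard error as a bar) of each tested member (vertical axis) in UM171 against DMSO, 1 panel per time, from the 15-library edgeR fit. Filled points have an adjusted p under 0.05. DUSP6 moves from -0.52 at 6 h to 1.23 at 72 h, DUSP2 reaches -1.90 at 72 h, and SPRED1 is highest at 24 h with 1.44.

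DUSP6 (ENSG00000139318, chromosome 12, 89347235 to 89352501 in GRCh38) encodes the cytoplasmic phosphatase that acts on ERK with high selectivity. It stood at 33.7, 37.6 and 37.35 TPM in DMSO and at 27.8, 27.3 and 30.7 TPM at 6 h. Every 6 h library lay below every DMSO library. At 24 h the 3 libraries had 63.3, 66.7 and 67.9 TPM, at 48 h 82.0, 79.5 and 76.1 TPM, and at 72 h 100.5, 98.2 and 92.0 TPM. From 24 h on, no library overlapped with DMSO or with the time before it. The log2 fold change against DMSO was -0.52 at 6 h (standard error 0.05, edgeR adjusted p = 6.27e-08), 0.76 at 24 h (0.04, 1.1e-10), 1.11 after 48 h (0.04, 6.18e-13) and 1.23 at 72 h (0.04, 1.19e-13). DUSP6 thus fell first and then rose, to 2.35-fold of DMSO in the time-matched comparison at 72 h. Between adjacent times it rose by 1.28 from 6 to 24 h (edgeR adjusted p = 5.13e-13), by 0.35 from 24 to 48 h (6.37e-06) and by 0.12 from 48 to 72 h (0.0265). The last step did not pass when UM171 48 h replicate 1 (edgeR adjusted p = 0.13) or 2 (0.13) or UM171 72 h replicate 1 (0.12) was left out, without a filter on low counts (0.12), in a fit of all 21 libraries (0.18) or with only the 6 libraries of those times (0.076). In order of mean TPM, the groups were UM171 6 h (28.6 ± 1.8, SD, n = 3), DMSO (36.2 ± 2.2), sgEPCR UM171 (36.5 ± 13), sgEPCR DMSO (39.2 ± 17), UM171 24 h (66.0 ± 2.4), UM171 48 h (79.2 ± 3.0) and UM171 72 h (96.9 ± 4.4). The TPM of DMSO lay within the range of both sgEPCR groups, which follow it in this order.

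DUSP2 (ENSG00000158050, chromosome 2, 96143169 to 96145440), a nuclear phosphatase best known from activated lymphocytes and other blood cells, took the opposite course. In DMSO its levels were 12.3, 11.02 and 12.4 TPM, and at 6 h they were 10.0, 11.35 and 11.8 TPM, overlapping with DMSO. By 24 h they were 7.54, 7.86 and 8.24 TPM, and by 72 h 2.88, 3.99 and 3.11 TPM, all below DMSO. The 48 h libraries were spread out, with 7.26, 6.52 and 3.14 TPM, of which replicate 3 was at the level of 72 h. DUSP2 fell by 0.61 in log2 units at 24 h (standard error 0.14, edgeR adjusted p = 9.64e-04), by 1.04 after 48 h (0.15, 6.25e-06) and by 1.90 at 72 h (0.16, 6.37e-09), where its level was 0.269 of DMSO. At 6 h the value was -0.27 (standard error 0.14, adjusted p = 0.1). Without UM171 48 h replicate 3, whose mitochondrial share of 13.5% was the highest in control cells, the 48 h value was -0.84. In a fit of all 21 libraries DUSP2 was not past the threshold at 24 h (-0.60, edgeR adjusted p = 0.1).

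DUSP5 (ENSG00000138166, chromosome 10, 110497907 to 110511533), a nuclear phosphatase selective for ERK, was lower at every time. It had 10.35, 9.32 and 10.1 TPM in DMSO. At 6 h it had 6.6, 7.51 and 7.13 TPM, at 24 h 5.64, 6.32 and 6.53 TPM, at 48 h 7.72, 8.17 and 5.73 TPM, and at 72 h 5.4, 5.3 and 5.25 TPM. All 12 UM171 libraries lay below the 3 DMSO libraries. DUSP5 fell by 0.66 in log2 units at 6 h (standard error 0.07, edgeR adjusted p = 8.52e-07), by 0.75 at 24 h (0.07, 8.32e-08), by 0.44 after 48 h (0.07, 3.81e-05) and by 1.00 at 72 h (0.08, 1.94e-09), to 0.502 of DMSO. The course was not a steady decline, since the step from 24 to 48 h was 0.31 (edgeR adjusted p = 0.00279) and that from 48 to 72 h was -0.55 (1.06e-05).

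DUSP1 (ENSG00000120129, chromosome 5, 172768096 to 172771195), an immediate early gene whose nuclear product acts on p38, JNK and ERK, moved by small amounts. Its DMSO libraries had 3.83 to 4.09 TPM. The range was 2.75 to 3.63 TPM at 6 h, 4.02 to 4.29 at 24 h, 4.66 to 5.64 after 48 h and 5.06 to 5.53 at 72 h. It was below DMSO in all 3 libraries at 6 h and above it in all libraries at 48 and 72 h. The log2 fold changes were -0.45 at 6 h (standard error 0.11, edgeR adjusted p = 0.0014), 0.03 at 24 h (0.10, 0.825), 0.45 after 48 h (0.10, 6.3e-04) and 0.33 at 72 h (0.10, 0.00631). On log2(TPM + 1) with limma DUSP1 was not past the threshold at 6 h (-0.24, limma adjusted p = 0.054).

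DUSP10 (ENSG00000143507, chromosome 1, 221701424 to 221742089), whose product prefers JNK and p38 over ERK, was the member with the flattest course. Its range was 7.85 to 9.6 TPM in DMSO, 6.24 to 9.45 at 6 h, 8.31 to 9.36 at 24 h, 6.86 to 8.67 after 48 h and 8.81 to 9.68 at 72 h, so that each time overlapped with DMSO. It was lower at 6 h in the count-based test, by -0.39 (standard error 0.07, edgeR adjusted p = 8.91e-05), but not on log2(TPM + 1) (-0.22, limma adjusted p = 0.18). At 24, 48 and 72 h its log2 fold changes were -0.00, -0.01 and 0.08 (edgeR adjusted p = 0.963, 0.94 and 0.269).

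DUSP4 (ENSG00000120875, chromosome 8), a nuclear phosphatase induced by ERK in many cells, was close to undetected, with 0 to 15 counts per library. Only 11 of 21 libraries reached 3 counts, the smallest number taken here as a signal. The DMSO libraries had 1, 2 and 0 counts and the 6 h libraries 1 each. At 24 h there were 4, 4 and 3 counts, at 48 h 10, 5 and 3, and at 72 h 15, 9 and 4. The 3 DMSO libraries together held 3 counts of 106 M, which is 2.83 per 100 M (95% exact Poisson interval 0.584 to 8.27). At 72 h 28 counts of 105 M gave 26.7 per 100 M (17.7 to 38.6), a ratio of 9.43 to DMSO with an exact interval of 2.91 to 48.5. The ratio was 6.06 after 48 h (1.77 to 32.1) and 3.24 at 24 h (0.856 to 18.1), the last of which includes 1. In sgEPCR DMSO the counts were 0 in all 3 libraries, where 3 counts would be 2.88 per 100 M and the exact upper limit is 3.54 per 100 M. In sgEPCR UM171 they were 4, 1 and 3, or 7.51 per 100 M (3.24 to 14.8), an interval that overlaps that of sgEPCR DMSO. Unlike for control cells, no exact interval was made for the ratio to sgEPCR DMSO. The overlap of separate intervals does not decide whether these groups differ. Set against 3 counts over the group the ratio was 2.61, which leaves out the counting error and is not a lower limit. These intervals cover counting error only, the gene was not tested, and differences between single libraries are not detectable at this depth.

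**Figure D3:**
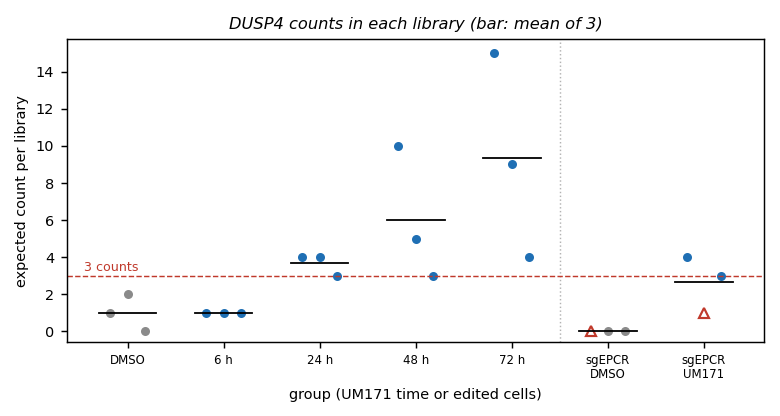
Expected counts of DUSP4 (vertical axis) in each library by group (horizontal axis), with bars for means of 3 and a dashed line at 3 counts. Gray marks DMSO, blue UM171, and open red triangles the 2 libraries with over 20% mitochondrial counts. Counts lie between 0 and 2 in DMSO and at 6 h, and between 4 and 15 at 72 h.

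The Sprouty genes differed from each other. SPRY2 (ENSG00000136158, chromosome 13, 80335976 to 80341126), which restrains RAS and RAF activation downstream of receptor tyrosine kinases, had 13.2 to 13.7 TPM in DMSO. It had 17.1 to 19.1 TPM at 6 h, 15.8 to 16.1 at 24 h, 14.7 to 20.9 after 48 h and 15.9 to 17.7 at 72 h, above DMSO in every UM171 library. SPRY2 rose by 0.26 in log2 units at 6 h (standard error 0.06, edgeR adjusted p = 9.77e-04), 0.21 at 24 h (0.06, 0.00332), 0.45 after 48 h (0.06, 1.94e-06) and 0.24 at 72 h (0.06, 0.00109). In the fit of all 21 libraries the SPRY2 values at 6, 24 and 72 h were not past the threshold (edgeR adjusted p = 0.14, 0.19 and 0.15). SPRY1 (ENSG00000164056, chromosome 4, 123396795 to 123403760), its close relative, ranged from 12.4 to 13.3 TPM in DMSO and from 10.8 to 11.6 at 24 h, without overlap. At 72 h its 3 libraries had 14.25, 16.05 and 14.9 TPM, all above DMSO. SPRY1 fell by 0.21 at 24 h (standard error 0.06, edgeR adjusted p = 0.0049) and rose by 0.24 at 72 h (0.06, 0.00146). At 6 and 48 h its log2 fold changes were 0.10 and 0.06 (edgeR adjusted p = 0.157 and 0.438).

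Both SPRED genes, whose products bind neurofibromin and bring it to RAS at the membrane, were higher from 24 h on, with different timing. SPRED1 (ENSG00000166068, chromosome 15, 38252836 to 38357249) had 3.59, 5.27 and 5.6 TPM in DMSO, and the first library was the lowest of all control libraries. It had 10.4, 10.7 and 13.5 TPM at 6 h, 12.6, 13.8 and 13.1 at 24 h, 13.1, 14.1 and 9.87 at 48 h, and 8.22, 9.79 and 8.18 at 72 h. SPRED1 was above DMSO in all 12 UM171 libraries and peaked at 24 to 48 h. The log2 fold change of its counts was 0.98 at 6 h (standard error 0.07, edgeR adjusted p = 3.79e-09), 1.44 at 24 h (0.07, 7.61e-12), 1.33 after 48 h (0.07, 1.63e-11) and 0.95 at 72 h (0.07, 1.07e-09), and the step from 48 to 72 h was -0.38 (1.04e-04). The ratio of mean TPM at 6 h, 2.39, was above the fold change of the counts, 1.97. TPM also depends on the transcript lengths that RSEM assigns in each library, and the part of these lengths in the gap was not tested.

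SPRED2 (ENSG00000198369, chromosome 2, 65307175 to 65432599) had 20.2, 22.1 and 22.3 TPM in DMSO and 25.6, 23.5 and 24.6 at 6 h. At 24 h it had 30.6, 31.0 and 31.5 TPM, at 48 h 35.0, 33.65 and 30.7, and at 72 h 33.4, 34.0 and 36.9. All libraries from 24 h on lay above all DMSO and 6 h libraries. SPRED2 rose by 0.43 in log2 units at 24 h (standard error 0.06, edgeR adjusted p = 6.18e-06), 0.73 after 48 h (0.06, 8.11e-09) and 0.60 at 72 h (0.06, 8.12e-08), or 1.51-fold. At 6 h its log2 fold change was 0.03 (edgeR adjusted p = 0.65), with a reversed sign in some fits, and the separation of the 6 h from the DMSO libraries in TPM is of the size of the shift of all genes on that scale.

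The next comparisons ask how the members respond to UM171 in cells edited at EPCR. In the sgEPCR groups, 1 library in each stood apart by its mitochondrial share, and its TPM of members was lower than that of both other libraries of its group for all 9 tested members. The share of all genes with the same order was not counted, so this order cannot be called particular to the members. On log2(TPM + 1) with limma, the median of all genes was -0.32 in sgEPCR DMSO against DMSO. Calls of this section come from a fit of 12 libraries and 15901 genes, whose common biological coefficient of variation, a measure of the spread between libraries, was 0.187 against 0.0564 in the time course.

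In sgEPCR cells, UM171 moved some members otherwise than in control cells at 24 h and others alike. DUSP5 rose where it fell in control cells, DUSP10 rose where it was flat, and DUSP6 did not rise. SPRY1 and DUSP2 fell and SPRY2 rose in both. The control response was measured against DMSO labelled 72 h, that of sgEPCR cells against DMSO labelled 24 h. With UM171 in sgEPCR cells, 4 of 9 members were higher (27% of all tested genes) and 3 lower (25.1%). Their median was 0.26 beside -0.01 over all genes, and 2 were within the study's limits (10.3%). Without the 2 libraries with high mitochondrial shares, 5 were higher (34.5% of all genes) and 3 lower (36.4%).

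DUSP10 had 2.62, 4.39 and 4.8 TPM in sgEPCR DMSO and 13.5, 6.13 and 11.98 TPM in sgEPCR UM171, without overlap. It rose by 1.07 in log2 units (standard error 0.12, edgeR adjusted p = 2.67e-05), and by 1.23 without the 2 libraries (0.07, 7.81e-10). DUSP5 had 1.5, 5.62 and 5.04 TPM in DMSO and 11.1, 4.38 and 11.1 TPM in UM171, and the groups overlapped only through the library with the high mitochondrial share in UM171. DUSP5 rose by 0.92 (standard error 0.18, edgeR adjusted p = 0.0013), and by 0.86 without the 2 libraries (0.08, 4.06e-07). This was the reverse of its decline in control cells.

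SPRY1 had 3.61, 9.61 and 8.82 TPM in sgEPCR DMSO and 3.95, 1.96 and 3.88 TPM in sgEPCR UM171, where the lowest DMSO value is that of the library with the high mitochondrial share. It fell by 1.39 in log2 units (standard error 0.10, edgeR adjusted p = 7.97e-07), to 0.38 of its DMSO level, and by 1.36 without the 2 libraries (0.09, 8.77e-09). DUSP2 had 1.27, 8.31 and 8.64 TPM in DMSO and 3.15, 0.63 and 2.79 TPM in UM171. It fell by 1.63 (standard error 0.37, edgeR adjusted p = 0.00388), and by 1.68 without the 2 libraries (0.10, 1.49e-09). With only the 6 sgEPCR libraries in the fit, the DUSP2 value was -1.60 with an edgeR adjusted p of 0.051.

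DUSP6 had 19.8, 48.65 and 49.1 TPM in sgEPCR DMSO and 42.3, 21.8 and 45.6 TPM in sgEPCR UM171. Its log2 fold change was -0.38 (standard error 0.08, edgeR adjusted p = 0.00155), or 0.767 of the DMSO level, and -0.41 without the 2 libraries (0.05, 2.82e-06). With total count scaling it was -0.22 and not past the threshold (edgeR adjusted p = 0.27). SPRY2 had 3.75, 12.7 and 13.1 TPM in DMSO and 20.7, 8.47 and 22.1 TPM in UM171. SPRY2 rose by 0.59 (standard error 0.17, edgeR adjusted p = 0.0128), and by 0.52 without the 2 libraries (0.05, 7.08e-07), but was not past the threshold with total count scaling (0.73, 0.094), with only the 6 sgEPCR libraries (0.61, 0.083) or without sgEPCR UM171 replicate 3 (0.49, 0.051). DUSP1, with 1.85, 3.95 and 4.12 TPM in DMSO and 6.67, 3.03 and 6.59 TPM in UM171, rose by 0.45 (standard error 0.10, edgeR adjusted p = 0.00256), and by 0.51 without the 2 libraries (0.09, 1.9e-04). SPRED1 (0.26, standard error 0.12, edgeR adjusted p = 0.0824, and 0.12 without the 2 libraries, 0.152) and SPRED2 (0.11, 0.20, 0.671) did not pass. Without the 2 libraries SPRED2 passed with 0.14 (standard error 0.05, edgeR adjusted p = 0.0168).

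On log2(TPM + 1) with limma and all 12 libraries, only DUSP10 of the 9 members was past the threshold for the sgEPCR response. Of all 15901 genes, 3196 were past it in that fit, against 8282 with edgeR. On that scale 82.6% of all calls were higher, against 51.8% with TMM and 69.1% with total counts, and the median of all genes was 0.14 (0.16 with total counts, -0.01 with TMM).

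Between the responses of the genotypes to 24 h of UM171, tested as an interaction, DUSP5 and DUSP10 had a higher response in sgEPCR cells and DUSP6, SPRY1 and SPRED1 a lower one. DUSP6 rose in control cells and fell in sgEPCR cells, SPRY1 fell in both, and SPRED1 rose by 1.44 in control cells and was at 0.26 in sgEPCR cells (edgeR adjusted p = 0.0824). In all, 3 of 9 members had a higher response (21.9% of all genes) and 3 a lower one (23.1%), and 2, DUSP6 and SPRY1, were within the study's limits (7.77%). The median difference was -0.33 for the members and -0.02 for all genes. Without the 2 libraries 4 were higher (33.6%) and 5 lower (35.6%), so that all 9 were past the threshold.

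The response of DUSP5 differed by 1.66 in log2 units (standard error 0.25, edgeR adjusted p = 3.33e-04), and by 1.62 without the 2 libraries (0.11, 8.42e-09). For DUSP10 the difference was 1.06 (standard error 0.17, edgeR adjusted p = 4.29e-04), and 1.24 without them (0.09, 1.19e-08). DUSP6, which rose in control cells, had a difference of -1.15 (standard error 0.11, edgeR adjusted p = 1.35e-05), and -1.17 without them (0.06, 7.6e-10). SPRY1 differed by -1.19 (standard error 0.13, edgeR adjusted p = 4.4e-05), and by -1.14 without them (0.11, 5.7e-07). SPRED1 likewise differed by -1.19 (standard error 0.16, edgeR adjusted p = 1.84e-04), and by -1.31 without them (0.10, 2.24e-08).

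DUSP1 had a difference of 0.42 (standard error 0.14, edgeR adjusted p = 0.0286) that was lost in most fits that left out 1 library, among them those without DMSO replicate 1 (0.08) or 3 (0.071), UM171 24 h replicate 2 (0.074) or 3 (0.079), sgEPCR DMSO replicate 2 (0.083) or 3 (0.052) and sgEPCR UM171 replicate 1 (0.073) or 3 (0.067), these values being edgeR adjusted p. Without the 2 libraries of high mitochondrial share it was past the threshold, with 0.49 (standard error 0.12, edgeR adjusted p = 0.00273). DUSP2 had a large difference that was not past the threshold, -1.02 (standard error 0.51, edgeR adjusted p = 0.127), and that was past it without the 2 libraries, with -1.07 (0.12, 2.02e-06). For SPRY2 and SPRED2 the differences were 0.37 and -0.33 (edgeR adjusted p = 0.233 and 0.362), and 0.31 and -0.28 without the 2 libraries (0.00123 and 0.00117). On log2(TPM + 1) with limma 0 of the 9 differences passed (6 with edgeR and 6 with DESeq2 on the counts), the lowest limma adjusted p being 0.080 for DUSP10 (1.19) and 0.087 for DUSP5 (1.60). Over all 15901 genes, limma on log2(TPM + 1) called 2011, against 7158 with edgeR. On that scale 70.2% of all calls were higher (48.7% with TMM, 59.7% with total counts), and the median of all genes was 0.12 (0.12 with total counts).

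**Figure D4:**
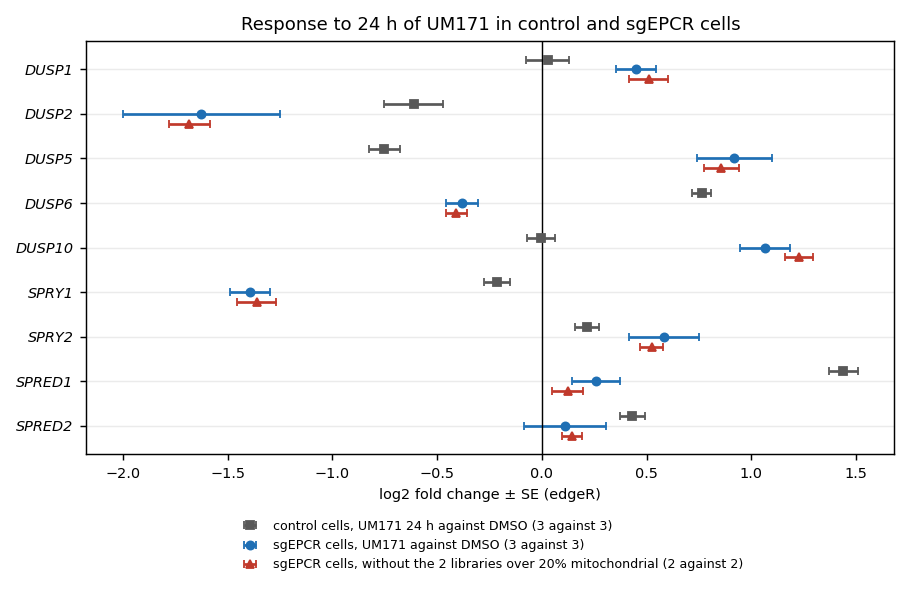
Log2 fold change (horizontal axis, with the standard error as a bar) of each tested member (vertical axis) after 24 h of UM171 against DMSO. Gray squares are control cells, blue circles are sgEPCR cells with all 3 libraries per group, and red triangles are sgEPCR cells without the 2 libraries with over 20% mitochondrial counts. DUSP5 lies at -0.75 in control and 0.92 in sgEPCR cells, DUSP6 at 0.76 and -0.38, and the red and blue points lie close together for every gene.

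Already in DMSO the genotypes differed, although the labelled times, 24 h for sgEPCR and 72 h for control cells, differ too and cannot be told apart from the genotype. Of 9 members, 3 were higher in sgEPCR DMSO (17.4% of all genes), 3 were lower (16.3%) and 0 were within the study's limits (2.84%), with a median of -0.12 beside 0.00 over all genes. Without sgEPCR DMSO replicate 1 and sgEPCR UM171 replicate 2, 3 were higher (30.3%) and 4 lower (30%). DUSP5 was lower by -0.97 (standard error 0.18, edgeR adjusted p = 0.0017), and -0.80 without them (0.08, 7.7e-07). DUSP10 was lower by -0.65 (standard error 0.12, edgeR adjusted p = 0.00169), and -0.81 without them (0.06, 8.5e-08). SPRY1 was lower by -0.35 (standard error 0.09, edgeR adjusted p = 0.0139), and -0.41 without them (0.07, 2.55e-04), but not past the threshold without DMSO replicate 1 (-0.31, 0.058) or sgEPCR DMSO replicate 3 (-0.27, 0.062). DUSP2, at -0.75 (edgeR adjusted p = 0.129), passed without them with -0.43 (0.08, 2.25e-04).

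Higher in sgEPCR DMSO were DUSP6, SPRED1 and SPRED2, but on log2(TPM + 1) with all libraries their differences were near 0. In TPM, sgEPCR DMSO replicates 2 and 3 lay above every DMSO library for each of these genes. Replicate 1, the library with the high mitochondrial share, lay below every DMSO library. The part of this library and of the scaling in the loss was not tested. DUSP6 was higher by 0.49 (standard error 0.08, edgeR adjusted p = 5.8e-04), by 0.45 without the 2 libraries (0.04, 7.47e-07), and by 0.00 on log2(TPM + 1) with all libraries. SPRED1 was higher by 0.71 (standard error 0.12, edgeR adjusted p = 8.97e-04), by 0.69 without them (0.07, 1.17e-06), and by 0.05 on log2(TPM + 1). SPRED2 was higher by 0.61 (standard error 0.20, edgeR adjusted p = 0.0333), by 0.35 without them (0.05, 1.17e-05), and turned to -0.04 on log2(TPM + 1). SPRED2 did not pass without DMSO replicate 1, 2 or 3 or sgEPCR DMSO replicate 1 (edgeR adjusted p = 0.07, 0.096, 0.086 and 0.11). On the log2(TPM + 1) scale the median of all genes was -0.32 and 13% of the calls were higher, against 26.9% with total counts (median -0.25) and 51.8% with TMM.

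Under UM171 at 24 h in both genotypes, 3 of 9 members were higher in sgEPCR cells (20.8% of all genes), 4 were lower (22.2%), and 1, SPRY1, was within the study's limits (4.46%). The median was 0.25 for the members and -0.02 for all genes. Without the 2 libraries 4 were higher (32.4%) and 4 lower (35.9%). SPRY1 had 11.1, 10.8 and 11.6 TPM in control cells, each above its 3 sgEPCR values, a log2 fold change of -1.54 (standard error 0.10, edgeR adjusted p = 1.17e-06), and -1.55 without the 2 libraries (0.09, 1.28e-09). DUSP2 was lower by -1.77 (standard error 0.37, edgeR adjusted p = 0.00306), and -1.49 without them (0.09, 4.21e-09). DUSP6 was lower by -0.66 (standard error 0.08, edgeR adjusted p = 6.27e-05), and -0.72 without them (0.04, 3.58e-09). SPRED1 was lower by -0.48 (standard error 0.11, edgeR adjusted p = 0.00652), and -0.62 without them (0.07, 1.11e-06). The 3 higher members were DUSP1 (0.56, and 0.62 without the 2 libraries), DUSP5 (0.69, and 0.82) and DUSP10 (0.41, and 0.42), and none of these 3 passed with total count scaling (edgeR adjusted p = 0.12, 0.19 and 0.14), under which the median of all genes was -0.13, or on log2(TPM + 1), where it was -0.21.

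The other genes of the families were counted next. Of 4 further MAP kinase phosphatases DUSP9 had too few counts. DUSP16, whose product acts mainly on JNK and p38, had 1.0, 1.33 and 1.19 TPM in DMSO and 5.24, 5.71 and 6.58 TPM at 72 h. It rose by 1.24 at 6 h (standard error 0.10, edgeR adjusted p = 2.5e-08), 0.42 at 24 h (0.11, 0.0027), 2.15 after 48 h (0.10, 3.3e-12) and 2.43 at 72 h (0.10, 3.6e-13). In sgEPCR cells DUSP16 went from 0.5, 0.89 and 0.78 TPM to 10.3, 6.16 and 11.7 TPM with UM171, a gain of 3.68 (standard error 0.14, edgeR adjusted p = 1.8e-08) and 3.71 without the 2 libraries. DUSP8, of similar substrates, went from 1.43, 1.32 and 1.18 TPM to 12.7, 9.11 and 14.0 TPM in sgEPCR cells (3.18, standard error 0.18, edgeR adjusted p = 2.2e-07, and 3.30 without the 2 libraries). In control cells DUSP8 was lower at 24 h (-0.62, standard error 0.15, edgeR adjusted p = 0.0015) and higher after 48 h (0.96, 0.13, 6.2e-06) and 72 h (1.17, 0.13, 3.8e-07). The responses of DUSP8 and DUSP16 differed between the genotypes by 3.76 and 3.25 (standard errors 0.26 and 0.19, edgeR adjusted p = 1.7e-06 and 7e-07), above any member described here. DUSP7, an ERK phosphatase of the cytoplasm, was lower at all 4 times, from -0.65 at 6 h to -0.25 at 48 h, and by -1.08 in sgEPCR cells (standard error 0.06, edgeR adjusted p = 2.9e-07, and -1.04 without the 2 libraries).

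Of the other Sprouty and SPRED genes (SPRY3, SPRY4 and SPRED3), 1 of 3 was higher and 2 were lower at 24 h (34.9% and 34.8% of all genes), and all 3 were higher with UM171 in sgEPCR cells (27%). All had group means of 1.6 TPM or less. SPRY4 had 0, 4 and 0 counts in DMSO, 6, 6 and 2 at 6 h, 60, 62 and 48 at 24 h, 240, 138 and 120 at 48 h, and 147, 109 and 146 at 72 h. Its edgeR adjusted p was 9.9e-08 at 24 h and 4.9e-10 at 72 h. In sgEPCR cells SPRY4 had 6, 5 and 9 counts in DMSO and 139, 81 and 166 in UM171 (edgeR adjusted p = 3.9e-05, and 3.3e-07 without the 2 libraries).

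Of 11 genes known as transcriptional outputs of ERK, 9 were tested in the time course. At 6 h 2 were higher and 3 lower (31.8% and 30.3% of all genes), at 24 h 6 and 3 (34.9% and 34.8%), at 48 h 6 and 2 (37.1% and 35%), and at 72 h 6 and 2 (38.8% and 36.8%), with medians of 0.32, 2.74, 3.97 and 3.60 beside the medians of all genes given above. EGR1, an immediate early transcription factor, had 1.82, 1.96 and 2.03 TPM in DMSO and 48.1, 43.2 and 47.1 TPM at 48 h (4.61, standard error 0.15, edgeR adjusted p = 4.6e-14). ETV5, an ETS factor, had 2.47, 1.69 and 1.86 TPM in DMSO and 30.2, 30.9 and 30.3 TPM at 72 h (4.11, 0.07, 4e-17). PHLDA1 and IER3 rose by 4.44 and 3.60 at 72 h (standard error 0.14 each, edgeR adjusted p = 3e-14 and 3.3e-13). FOS, by contrast, was lower at all 4 times (from -0.54 at 24 h to -1.26 at 72 h, the latter with an edgeR adjusted p of 1.8e-11), as was FOSL1 (-1.83 at 72 h, 1.3e-10). In sgEPCR cells 6 of 10 tested output genes were higher with UM171 (27% of all genes), and 6 higher and 1 lower without the 2 libraries (34.5% and 36.4%). ETV5, already at 4.74, 9.77 and 9.48 TPM in sgEPCR DMSO, responded less than in control cells, with a difference of -2.56 (standard error 0.15, edgeR adjusted p = 7.5e-07), and -2.53 without the 2 libraries. PHLDA1 and IER3 responded more, by 2.15 and 1.62 (standard errors 0.40 and 0.25, edgeR adjusted p = 0.0014 and 3.8e-04), and by 2.28 and 1.803 without them.

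The 23 genes of the cascade itself, from the GM-CSF receptor to ERK, moved in both directions in control cells. At 24 h 9 were higher and 9 lower (34.9% and 34.8% of all genes), with a median of 0.07, and at 72 h 12 and 9 (38.8% and 36.8%), with a median of 0.25. In sgEPCR cells 16 were higher with UM171 and 2 lower (27% and 25.1% of all genes), with a median of 0.69, and 16 and 4 without the 2 libraries (34.5% and 36.4%). GAB2, an adaptor upstream of RAS, rose in both, from 3.33, 3.74 and 3.41 TPM in DMSO to 35.6, 34.2 and 32.4 at 72 h (3.205, standard error 0.06, edgeR adjusted p = 5.5e-17), and by 2.17 in sgEPCR cells (0.08, 1.3e-08, and 2.19 without the 2 libraries). NF1, which encodes neurofibromin, the partner of SPRED proteins, rose by 1.29 at 72 h (standard error 0.05, edgeR adjusted p = 1.7e-13) and by 1.35 in sgEPCR cells (0.13, 1.1e-05, and 1.28 without the 2 libraries). CSF2RA, the alpha chain of the GM-CSF receptor, was lower in sgEPCR DMSO than in DMSO (-1.23, standard error 0.11, edgeR adjusted p = 1.7e-05, and -1.17 without the 2 libraries), and its response was higher in sgEPCR cells (1.78, 0.15, 7.1e-06, and 1.81 without them). SOS1, a RAS activator, was higher with UM171 in sgEPCR cells (1.12, standard error 0.27, edgeR adjusted p = 0.0055, and 1.05 without the 2 libraries), and unlike the members it was highest in the libraries with high mitochondrial shares, 44.8 TPM in DMSO and 113.5 TPM in UM171. Of 10 JNK and p38 kinases and their activators, 4 were higher and 3 lower at 24 h among 9 tested (34.9% and 34.8% of all genes). In sgEPCR cells 5 and 1 of 10 were called (27% and 25.1%), and 5 and 4 without the 2 libraries (34.5% and 36.4%). MAPK14, the p38 alpha kinase, was lower at 24 h (-0.56, standard error 0.04, edgeR adjusted p = 4.8e-09) and in sgEPCR cells (-0.67, 0.14, 0.0021, and -0.75 without the 2 libraries).

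For the 3 members with the highest levels, the genes with the most similar pattern over the 7 group means of log2(TPM + 1) were sought among 15781 genes. For DUSP6 these were ATG9A, ZNRF2 and USP3 (Pearson's r of 0.989, 0.982 and 0.979). For SPRED2 they were ZFAND6, PCDH12 and PHOSPHO1 (0.995, 0.994 and 0.992), and for SPRY2 they were WWP1, NOTCH2 and the gene listed as ENSG00000276900 (each 0.988). These are descriptions over 7 means that share the same libraries and the same 2 libraries with high mitochondrial shares, and by Spearman's rho 3 different genes led each list.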

How the data were processed

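Poly(A) RNA of 21 OCI-AML5 libraries was sequenced in 7 groups of 3. For each library, the authors deposited RSEM expected counts per gene, not normalized, and TPM, which divides by transcript length and is scaled to the same sum. The submitters' processing notes name CASAVA 1.8.2, Trimmomatic 0.35, STAR 2.5.1b, RSEM 1.2.28 and GRCh38, and the study's methods describe kallisto and sleuth. The 45 entries of the Y pseudoautosomal regions, of 58219, were summed with their X counterparts, and 57392 of 58174 identifiers matched a symbol.

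Expected counts were rounded and tested with edgeR 4.0.16 in R 4.3.3 (filterByExpr, TMM, glmQLFit, glmQLFTest, Benjamini-Hochberg over all tested genes), without a replicate term, in fits of 15 libraries (time course, 16575 genes) and 12 libraries (genotypes, 15901 genes). Deviations of all 3 same-numbered pairs correlated by over 0.1 only between DMSO and UM171 72 h. They were also all positive between UM171 6 h and each of these groups. This is a hint of pairing from the data and not from the labels. Standard errors were derived from the F statistic, as |log2 fold change| over its square root. Tested on simulated data with 200 genes changed 4-fold, edgeR recovered 200 of 200 with 0 false calls at the study's limits. This held for the 24 h comparison (16575 genes) and for the interaction (15901 genes). The simulated coefficient of variation was 0.05, near the 0.0564 of the time course and below the 0.187 of the genotype fit. No outlying library was simulated. The 0 false calls therefore do not measure errors in the genotype fit or at an adjusted p under 0.05. The alternatives included DESeq2 1.42.0 and, for TPM, limma 3.58.1 on log2(TPM + 1) and log2(TPM + 0.1), other scalings, filters, library sets and limits, a replicate block, and leaving out each library. Fits that left out the 2 libraries above 20% mitochondrial counts, or the mitochondrial genes, were chosen after seeing the data. The members and lists were chosen with earlier results of these data known. Named were all members, per list and comparison up to 4 genes of largest change with an adjusted p under 0.05 and an average log2 CPM above 2, the 3 genes most like each of the 3 highest members, and PROCR. SPRY4, DUSP8 in the time course, and FOS and FOSL1 at 72 h were named outside this rule after their values were seen, as were the genes whose promoters are shown. Depth was 24.3 to 51.5 M counts per library. A floor of 3 counts and 95% intervals cover counting error only. Python 3.11.15 with pandas and matplotlib 3.10.9 made tables and figures. Some of the markers examined are not reported here.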

Additional observations from a re-analysis of the deposited data

Results flagged for a closer look

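The response to 24 h of UM171 differed between sgEPCR and control cells for 6 of the 9 tested members, by the interaction term of the edgeR fit of 12 libraries. Of the 9, 3 had a higher response (21.9% of all genes) and 3 a lower one (23.1%). On log2(TPM + 1) with limma 0 of the 9 passed, in a fit that called 2011 of all 15901 genes, against 7158 with edgeR. The difference in log2 response, sgEPCR minus control cells, was 1.66 for DUSP5 (adjusted p = 3.33e-04), 1.06 for DUSP10 (4.29e-04) and 0.42 for DUSP1 (0.0286). It was -1.15 for DUSP6 (edgeR adjusted p = 1.35e-05), -1.19 for SPRY1 (4.4e-05) and -1.19 for SPRED1 (1.84e-04). The DUSP1 call was lost in most fits that left out a single library, and with the replicate block. The control cells' DMSO libraries are labelled 72 h and those of the sgEPCR cells 24 h, so that a difference of genotype and a difference of time in DMSO cannot be told apart here. In PROCR, the edited gene itself, the difference was -3.06, although its mRNA rose with UM171 in sgEPCR cells (0.65). With TMM scaling, though not by mean TPM, it was also higher in sgEPCR DMSO than in DMSO (0.42).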

How the results depend on the processing

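Of 74 member results past the threshold, 1298 of 1301 alternatives kept the direction, 3 reversed it and 133 lost the call. With the study's limits, 0, 1, 3 and 2 members passed at 6, 24, 48 and 72 h (6, 7, 7 and 8 at an adjusted p under 0.05), and 2, 0, 1 and 2 for the sgEPCR response, the genotypes in DMSO, the genotypes under UM171 and the interaction (7, 6, 7 and 6). With a 2-fold minimum added to the adjusted p under 0.05 these were 0, 1, 3, 2, 3, 0 and 2, and 5 for the interaction. With limma on log2(TPM + 1) and on log2(TPM + 0.1), the sgEPCR response, the genotypes in DMSO and the genotypes under UM171 had 1 member each and the interaction 0, and the cause was not tested. Over all genes these fits also called fewer, as given at the end of this section. With total count scaling 4 passed between the genotypes under UM171. Leaving out 1 library gave 6 to 6 at 6 h, 7 to 7 at 24 h, 7 to 7 at 48 h, 8 to 8 at 72 h, 6 to 8 for the sgEPCR response, 4 to 6 for the genotypes in DMSO, 6 to 7 for those under UM171 and 5 to 7 for the interaction. DESeq2 gave the same counts as edgeR in these 8 comparisons.

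The 3 called values that reversed were those between the genotypes in DMSO, for DUSP6 with log2(TPM + 0.1) (-0.0014) and for SPRED2 with log2(TPM + 1) (-0.041) and log2(TPM + 0.1) (-0.045). The other 27 reversals were of values not past the threshold. SPRED2 at 6 h became -0.013 without a filter and -0.018 to 0.054 on leaving out 1 library, and DUSP1 at 24 h became -0.0038 to 0.047. DUSP10 at 24 h became 0.028 with total count scaling, 0.0091 without a filter, 0.023 with a minimum of 10 counts per library, 0.0051 with all 21 libraries and 0.0001 with the replicate block, and -0.023 to 0.028 on leaving out 1 library. DUSP10 at 48 h became 0.017 with the minimum of 10 counts, and -0.025 to 0.025 on leaving out 1 library. SPRY1 at 48 h became -0.060 and -0.065 with the limma fits. SPRED2 in the sgEPCR response became -0.11 to 0.36 on leaving out 1 library. Between the genotypes in DMSO, DUSP1 became -0.25 and -0.33 with limma and -0.11 with total counts, and SPRY2 became 0.057 without the 2 libraries of high mitochondrial share and -0.24 to 0.064 on leaving out 1 library, the last without sgEPCR DMSO replicate 1. Under UM171, the limma fits gave -0.016 and -0.025 for SPRY2 and -0.25 and -0.26 for SPRED2.

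Over all groups the replicate numbers did not pair the samples, but in DMSO and UM171 72 h the deviations of all 3 same-numbered pairs correlated by over 0.1 (0.25, 0.11 and 0.29). The correlations were also positive in all same-numbered pairs of DMSO and UM171 6 h (0.23, 0.056 and 0.16) and of UM171 6 h and 72 h (0.41, 0.055 and 0.21). The replicate block changed no call of a member at 72 h. Deviations of same-numbered libraries correlated from -0.41 to 0.41 over 30 pairs of the time course, with 9 over 0.1, and from -0.91 to 0.86 over 3 pairs with sgEPCR groups. With the replicate block, 6, 7, 7 and 8 members passed at 6, 24, 48 and 72 h, 7 in the sgEPCR response and 5 in the interaction, where DUSP1 was lost (0.41, edgeR adjusted p = 0.12). The block was not fitted between the genotypes.

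Over all genes, 10301 were called at 6 h and 6558 with all 21 libraries in one fit. The sgEPCR response had 8282 calls (3196 and 3198 with limma), the genotypes in DMSO 5358 (1481 and 1450, and 9868 without the 2 libraries), those under UM171 6844 (1989 and 1605, and 11169) and the interaction 7158 (2011 and 1748, and 11328). With upper quartile scaling 63.3% of the calls at 6 h were higher. Depth limits DUSP4 and SPRY4, and the spread of the sgEPCR groups limits the genotype comparisons.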
